A study of Rattus norvegicus with 4 samples.

Results

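Transcripts of the proteasome were quantified by RNA sequencing in HSC-T6, an immortalised line of rat hepatic stellate cells, with and without ginsenoside Rk1, a saponin of processed ginseng. The treated group comprised 2 libraries of HSC-T6 cells given Rk1 (GRK1 in the labels), and the other group 2 libraries of HSC-T6 cells with no treatment. Dose, duration and vehicle are not in the labels. Nor do the labels say whether libraries of one group are separate cultures, so the p-values rest on a spread between libraries that may be technical. Members were the protein-coding rows of the count table whose symbol was Psma, Psmb, Psmc, Psmd, Psmf or Psmg followed by a number, with the 3 immunoproteasome subunits left out. This gave 40 of 32883 rows, made up of 15 core genes (Psma, Psmb), 20 cap genes (Psmc, Psmd), 4 Psmg genes and Psmf1.

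The proteasome degrades proteins that carry ubiquitin chains. Its core particle is a barrel of stacked rings, with an outer α ring (Psma) that gates the entrance and an inner β ring (Psmb) that holds the proteolytic sites. The cap, or regulatory particle, has a base with a ring of ATPases (Psmc) that unfold substrates, and a lid (most Psmd) that removes ubiquitin. Stellate cells that turn into myofibroblasts secrete large amounts of collagen. Some of the proteins that fail to fold on the secretory route are returned to the cytosol for degradation by the proteasome.

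Library totals ranged from 18008586 to 18125005 counts with Rk1 and from 18175053 to 20430930 untreated, and 12316 genes were abundant enough to be tested. In edgeR's quasi-likelihood test 1422 of them were higher with Rk1 (11.5%) and 1289 lower (10.5%), with a Benjamini-Hochberg adjusted p under 0.05 as the threshold. Of 10 stellate cell markers, 7 reached 1 CPM (the count scaled to library size) in at least one group, among them Vim, Col1a1 and Pdgfrb, whereas Lrat and Reln had no count in any library. Of the 10, Col1a1, Col3a1, Acta2 and Gfap fell with Rk1 and 0 rose. The summed level of the list was 11923 and 11834 CPM with Rk1, against 18728 and 17683 CPM untreated. Most of that sum was Col1a1 (means of 8012 CPM with Rk1 and 12042 CPM untreated) and Col3a1 (2626 and 4842 CPM). Vim did not pass (1205 and 1275 CPM), and Acta2 and Gfap were only at 3.34 and 3.48 CPM untreated. None of 5 hepatocyte markers and none of the 3 endothelial markers found reached 1 CPM, while 1 of 4 cholangiocyte markers (Sox9, which fell to 2.40 CPM with Rk1, against 8.04 CPM untreated) and 1 of 5 macrophage and leukocyte markers (Cd68) did. In bulk RNA a lower level can come from fewer cells that express a gene or from less RNA per cell, and these cannot be told apart. The part of these marker changes in the proteasome values was not tested.

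Proteasome transcripts differed little between Rk1 and untreated cells. Of the 40 members 39 passed the filter on low counts, and of these 6 fell with Rk1 and 0 rose. The count rests on single libraries, since leaving out any library lowered it. Each such fit leaves a lone library in its group, and fewer genes were also called over the whole table. The log2 fold changes of the 6 stayed below 0 in all 12 alternative fits, from -0.44 (Psmf1) to -0.11 (Psmc5). The 6 were Psma5, Psmb2 and Psmb6 of the core, Psmc1 and Psmc5 of the cap, and Psmf1. In the fit with all libraries their log2 fold changes were between -0.32 and -0.15, which is 1.25-fold to 1.11-fold lower. The share that fell, 15.4%, compares with 10.5% of all tested genes. All 6 were among the 32 members with a mean of at least 50 CPM, a bound chosen after seeing the data, where the share was 18.8%, against 15.6% of the 4710 tested genes at that level. The share was thus near that of genes of like abundance. By unadjusted p under 0.05, 10 members were lower and 0 higher, where 2139 of the 12316 tested genes were lower and 2291 higher. By DESeq2 or limma-voom, 0 members were higher.

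Most members had slightly lower means with Rk1. The log2 fold change was below 0 for 32 of 39 tested members (82.1%), against 49.7% of all tested genes, and the median was -0.06 for the members and 0.00 for all tested genes. Both Rk1 libraries lay below both untreated libraries for 23 members (59.0%, against 30.9% of all tested genes) and above them for 3 (against 32.1% of all tested genes), while the groups overlapped for 13. Among the 32 members at 50 CPM or more, the fold change was below 0 for 87.5% and both Rk1 libraries lay below for 59.4%, against 47.5% and 33.9% of all tested genes at that level. For 29 members the 95% interval of the fold change lay within 1.2-fold either way, a bound also chosen after seeing the data. These intervals bound how large a change could be, and do not show that the levels were equal.

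**Figure D1:**
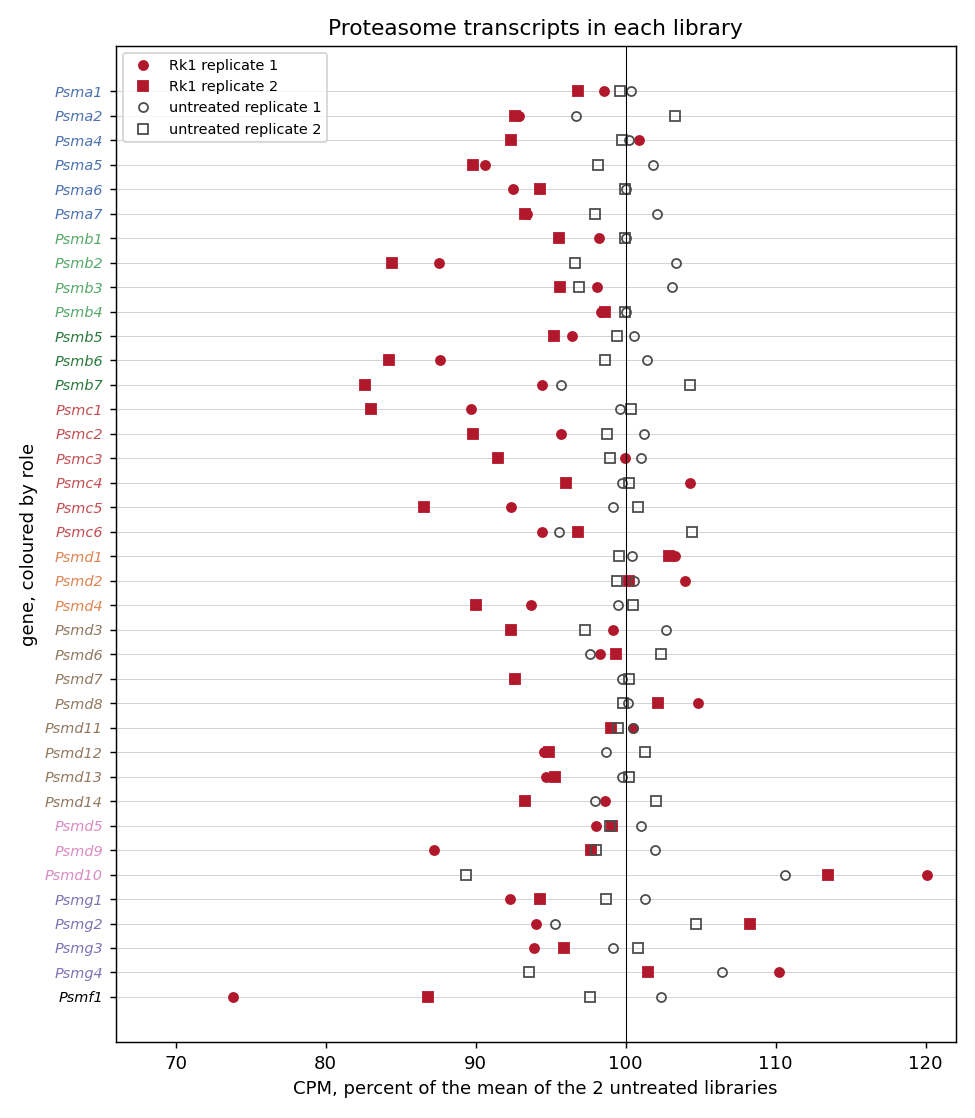
Level of each member with at least 1 CPM untreated in each of the 4 libraries, as a percent of the mean of the 2 untreated libraries (x axis); filled red symbols are Rk1 libraries, open symbols untreated libraries, circles replicate 1 and squares replicate 2, and gene names are coloured by role. Both red symbols lie left of both open symbols for most core genes, whereas they lie on the right for Psmd1, Psmd8 and Psmd10 only.

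All 14 tested core genes had a fold change below 0, against 49.7% of all tested genes. Without untreated replicate 1 or without Rk1 replicate 2 it was 13 of 14. Of the 14, 3 fell at the threshold (21.4%, against 10.5% of all tested genes and 15.6% of those at 50 CPM or more). In the α ring, which forms the gate and receives the cap, Psma5 had 181 and 179 CPM with Rk1, against 203 and 196 CPM untreated, a log2 fold change of -0.15 ± 0.04 (SE; adjusted p = 0.048). The Rk1 libraries lay close together, and both were below the untreated pair. The other 5 α ring genes tested ranged from -0.11 for Psma2 to -0.03 for Psma1 and did not pass (adjusted p = 0.14 to 0.61). Psma4, at 218 and 199 CPM with Rk1 against 217 and 215 CPM untreated, was the one α ring gene whose groups overlapped. Psma3 is not analysed here under that symbol; a row named Psma3l and described as alpha type 3-like lies outside the rule, with 212 and 222 CPM with Rk1, against 231 and 226 CPM untreated (-0.07 ± 0.04, adjusted p = 0.28).

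In the β ring, Psmb2, a subunit without a proteolytic site of its own, had 134 and 129 CPM with Rk1, against 158 and 148 CPM untreated. It fell by 0.22 ± 0.05 on the log2 scale (SE; adjusted p = 0.022). Psmb6, which carries the caspase-like proteolytic site, had 113 and 108 CPM with Rk1, against 131 and 127 CPM untreated, and fell by 0.22 ± 0.05 (adjusted p = 0.015). In both genes the groups stood apart by more than the libraries of either group differed. Psmb7, which carries the trypsin-like site, had 119 and 104 CPM with Rk1, against 121 and 132 CPM untreated. Here the 2 Rk1 libraries were further apart than the groups' nearest libraries, and the gene did not pass (-0.18 ± 0.07, adjusted p = 0.13). Nek6, which lies on the opposite strand and overlaps Psmb7, itself fell (42.5 and 57.0 CPM, means with Rk1 and untreated), and since the strand setting of the counting is not given, reads of one could be counted for the other. Psmb5, which carries the chymotrypsin-like site that proteasome inhibitor drugs block, had 55.4 and 54.7 CPM with Rk1, against 57.7 and 57.1 CPM untreated (-0.06 ± 0.05, adjusted p = 0.39). Psmb1, Psmb3 and Psmb4, which carry no proteolytic site, had fold changes of -0.05, -0.05 and -0.02, and none passed.

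The promoters of the 2 β ring genes that fell are printed because both hold a match to the core of the antioxidant response element, the site bound by NRF1 (gene Nfe2l1), a transcription factor of proteasome genes. Sequences are from RefSeq, build GRCr8, run 5′ to 3′ on the strand of the gene from 250 bases before its start to 50 bases after it, and capitals mark motif matches. The Psmb2 window is chr5:144254808-144255107, plus strand, and the Psmb6 window chr10:55737638-55737937, plus strand.
Psmb2: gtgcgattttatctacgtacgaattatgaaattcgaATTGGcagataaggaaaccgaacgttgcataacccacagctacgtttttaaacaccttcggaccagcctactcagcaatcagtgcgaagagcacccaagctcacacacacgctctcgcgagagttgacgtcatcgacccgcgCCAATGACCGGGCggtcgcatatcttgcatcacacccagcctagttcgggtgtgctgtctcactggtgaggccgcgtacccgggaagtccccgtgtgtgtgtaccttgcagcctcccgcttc
Psmb6: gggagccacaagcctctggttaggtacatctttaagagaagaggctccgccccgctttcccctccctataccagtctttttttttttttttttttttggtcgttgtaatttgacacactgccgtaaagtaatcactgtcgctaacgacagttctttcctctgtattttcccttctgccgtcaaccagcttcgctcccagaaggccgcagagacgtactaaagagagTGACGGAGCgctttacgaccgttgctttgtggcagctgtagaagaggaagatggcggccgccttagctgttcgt
In Psmb6 the capitals are TGACGGAGC, a match to TGACNNNGC. In Psmb2 they are ATTGG, which is the NF-Y box CCAAT read on the other strand, and a run in which CCAAT and TGACCGGGC overlap by a single T. Promoter sequences were found for 35 of 40 members. TGACNNNGC, searched on both strands, stood in 6 of them (17.1%), against 12.1% of all 33469 promoters of the table, and CCAAT in 17 (48.6%), against 37.5% of all. The 6 were Psmb2, Psmb5, Psmb6, Psmd1, Psmd3 and Psmd9, of which 2 fell. Psma5, Psmc1, Psmc5 and Psmf1, the other members that fell, had no match to TGACNNNGC in this window. A match is a description of letters and not evidence of a bound site.

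The core also includes a pair of genes restricted to particular tissues. Psma8, a testis α subunit, had 6 and 8 counts with Rk1, against 18 and 13 counts untreated (-1.04 ± 0.41, adjusted p = 0.11). Psmb11, the thymus-specific β subunit, had 1 and 0 counts with Rk1 and 1 and 0 counts untreated and was not tested. Psmb11 lay under a floor of 3 counts in every library, so a difference in it was not detectable at this depth.

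**Figure D2:**
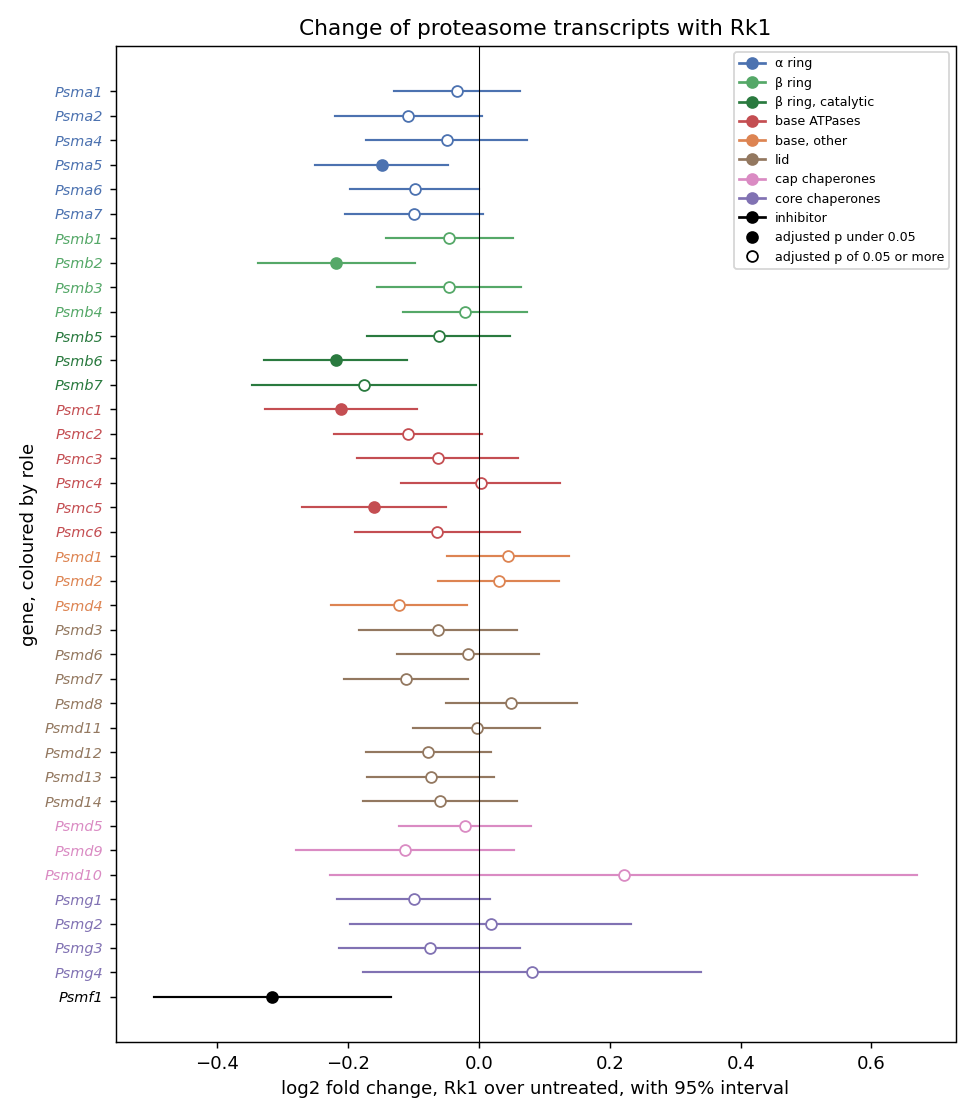
Log2 fold change of 38 members, Rk1 over untreated (x axis), with 95% intervals as lines; filled points passed an adjusted p under 0.05 and open points did not, and colours give the role of each gene. Psma8 is left out for its wide interval (-1.99 to -0.09). The points right of 0 are those of Psmd1 and Psmd2 of the base, Psmd8 of the lid, Psmc4 (at 0.002), Psmd10, Psmg2 and Psmg4. The other points lie left of 0, and the filled points are in the rings, the base ATPases and Psmf1.

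In the cap, 2 of the 20 genes fell, both of them ATPases of the base. The share, 10%, compares with 10.5% of all tested genes and 15.6% of those at 50 CPM or more. Psmc1 had 239 and 221 CPM with Rk1, against 265 and 267 CPM untreated (-0.21 ± 0.05, adjusted p = 0.022). Psmc5 had 268 and 251 CPM with Rk1, against 288 and 293 CPM untreated (-0.16 ± 0.05, adjusted p = 0.049). In both genes the untreated libraries were close together and Rk1 replicate 2 was the lowest of the 4. Psmc2 was at -0.11 ± 0.05 and did not pass (adjusted p = 0.15), and Psmc3 and Psmc6 were at -0.06 with overlapping groups. Psmc4 had 169 and 156 CPM with Rk1, against 162 and 163 CPM untreated (0.00 ± 0.05, 95% interval -0.12 to 0.12).

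None of the 14 Psmd genes passed the test. Psmd2 and Psmd1, the large scaffold subunits of the base, had 759 and 732 CPM with Rk1 against 735 and 726 CPM untreated, and 309 and 308 CPM with Rk1 against 301 and 298 CPM untreated. Their fold changes were 0.03 ± 0.04 and 0.04 ± 0.04. Psmd4, a ubiquitin receptor, had 158 and 152 CPM with Rk1, against 168 and 170 CPM untreated (-0.12 ± 0.04, adjusted p = 0.090). Of the lid genes, Psmd7, which pairs with the deubiquitinase Psmd14, was at 220.3 and 220.4 CPM with Rk1, against 238 and 239 CPM untreated (-0.11 ± 0.04, adjusted p = 0.093). Psmd14 itself, the enzyme that cuts ubiquitin chains off substrates, was at -0.06 ± 0.05 with overlapping groups. Psmd11 was level at 197 and 194 CPM with Rk1, against 197 and 195 CPM untreated (95% interval -0.10 to 0.09), and Psmd8 was at 155 and 151 CPM with Rk1, against 148 and 147 CPM untreated (0.05 ± 0.04). The remaining lid genes Psmd3, Psmd6, Psmd12 and Psmd13 were between -0.08 and -0.02. At an unadjusted p under 0.05, 2 of the 14 Psmd genes were lower and 0 higher, against 2139 and 2291 of the 12316 tested genes. Neither DESeq2 nor limma-voom called any Psmd gene. Sem1 and Adrm1, a lid subunit and a ubiquitin receptor whose symbols fall outside the rule, were at 0.05 ± 0.05 and -0.03 ± 0.05 and did not pass.

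Set side by side, the median log2 fold change was -0.10 over 14 tested core genes and -0.06 over 20 cap genes. Summed over members, core transcripts had 2294 and 2234 CPM with Rk1, against 2422 and 2397 CPM untreated, and cap transcripts had 4351 and 4209.6 CPM with Rk1, against 4435 and 4434 CPM untreated. Both sums were lower in each Rk1 library than in each untreated library, and the mean with Rk1 was 0.940 of the untreated mean for the core and 0.965 for the cap. The ratio of core to cap, summed per kilobase of exon, was 1.05 and 1.06 with Rk1, against 1.08 and 1.07 untreated. No test was made of these sums, because the members were chosen with results known, so whether core and cap differ in their change was not tested. Without Rk1 replicate 2 the cap median was -0.03.

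Per exon length, genes that help assembly were at lower levels than most subunits. Among the Psmg genes, which pair up to build the α ring, 0 of 4 passed and 0 had an unadjusted p under 0.05. Psmg1 had 45.9 and 46.9 CPM with Rk1, against 50.4 and 49.1 CPM untreated (-0.10 ± 0.05, adjusted p = 0.20). Psmg2, Psmg3 and Psmg4 were at 0.02, -0.08 and 0.08. Psmd5, Psmd9 and Psmd10, which carry cap names but act as chaperones of the base, were at -0.02, -0.11 and 0.22, and none passed. Pomp, a maturation factor of the β ring outside the rule, had 56.3 and 10.4 CPM with Rk1, against 13.4 and 12.3 CPM untreated. Its mean difference rests on Rk1 replicate 1 alone, and it did not pass (adjusted p = 0.16). Psmf1, a proteasome-binding protein first isolated as an inhibitor, had 48.0 and 56.5 CPM with Rk1, against 66.6 and 63.5 CPM untreated. It had the largest fall of the members that passed (-0.32 ± 0.08, 1.25-fold lower, adjusted p = 0.026), with groups that did not overlap.

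**Figure D3:**
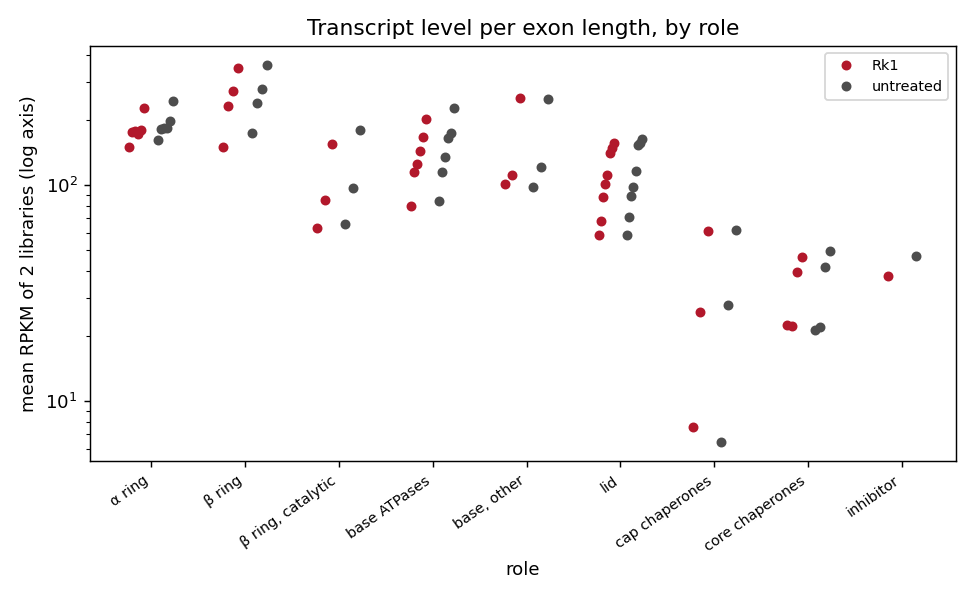
Mean RPKM of 2 libraries (CPM per kilobase of exon, log axis) for each member with at least 1 CPM untreated, grouped by role on the x axis, Rk1 in red and untreated in grey. The red and grey points of a role cover nearly the same range, and chaperones and Psmf1 lie below most ring, base and lid genes.

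Levels per exon length were spread more widely between members than between groups. Among the 13 core genes outside the tissue-restricted pair, mean RPKM (CPM per kilobase of exon) ran from 63.0 for Psmb5 to 348 for Psmb3 with Rk1, and from 65.7 for Psmb5 to 359 for Psmb3 untreated. The α ring genes lay within 149.5 to 227 RPKM with Rk1 and within 160.2 to 244 RPKM untreated, a narrower band than the β ring. In the cap without its chaperones, the range was 58.5 RPKM for Psmd11 to 253 RPKM for Psmd2 with Rk1, and 58.7 to 248 RPKM untreated for the same genes. Psmd10 was the lowest of the cap genes, at 7.52 RPKM with Rk1 and 6.44 RPKM untreated. Exon lengths are those deposited with the table. Which exons they sum is not given, so RPKM compares levels between genes only roughly.

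Larger changes were measured among the subunits left out by the rule. Immunoproteasome subunits replace the 3 proteolytic subunits of the standard core after interferon signalling, and Psme1 and Psme2 encode PA28, an activator that is induced with them. Of the 3 immunoproteasome genes 2 fell, where 10.5% of all tested genes and 15.6% of those at 50 CPM or more did. Psmb10, the counterpart of Psmb7, had 70.2 and 76.6 CPM with Rk1, against 125 and 106 CPM untreated (-0.66 ± 0.08, adjusted p = 0.0018). Psmb9, the counterpart of Psmb6, had 81.9 and 99.1 CPM with Rk1, against 134 and 120.3 CPM untreated (-0.49 ± 0.09, adjusted p = 0.0097). Psmb8, the counterpart of Psmb5, had 84.0 and 102 CPM with Rk1, against 120.03 and 109.8 CPM untreated, and narrowly missed the threshold (-0.30 ± 0.09, adjusted p = 0.052). It was called in 7 of the 12 alternatives, DESeq2, limma-voom and RLE size factors among them, with adjusted p from 0.0059 to 0.16. In each of these genes both Rk1 libraries lay below both untreated libraries. They did so in 30.9% of all tested genes and 33.9% of those at 50 CPM or more. The ratio of Psmb10 to Psmb7, per exon length, was 0.777 and 0.969 with Rk1, against 1.36 and 1.06 untreated, and that of Psmb9 to Psmb6 was 0.568 and 0.715 with Rk1, against 0.802 and 0.741 untreated. Psmb8 stood to Psmb5 at 0.641 and 0.790 with Rk1, against 0.879 and 0.813 untreated. An exact permutation test of 2 libraries against 2 cannot go below p = 0.333, so these ratios are given as values.

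Among the activators, Psme1 fell by 0.36 ± 0.05 on the log2 scale (183 and 191 CPM with Rk1, against 249 and 231 CPM untreated; adjusted p = 0.0032), and Psme2 by 0.29 ± 0.05 (297 and 305 CPM with Rk1, against 381 and 355 CPM untreated; adjusted p = 0.0061). The gene Emc9, at 8.72 and 9.74 CPM (means with Rk1 and untreated), overlaps Psme1 on the opposite strand. Psme3 and Psme4, activators that work mainly in the nucleus, were at 0.03 ± 0.04 and 0.13 ± 0.05 and did not pass. The promoters of Psmb10 and Psme2 are printed because both hold the interferon-stimulated response element, GAAA repeated after any 2 bases, in capitals. They are from the same RefSeq table and span chr19:50743243-50743542, minus strand, and chr15:33052702-33053001, minus strand.
Psmb10: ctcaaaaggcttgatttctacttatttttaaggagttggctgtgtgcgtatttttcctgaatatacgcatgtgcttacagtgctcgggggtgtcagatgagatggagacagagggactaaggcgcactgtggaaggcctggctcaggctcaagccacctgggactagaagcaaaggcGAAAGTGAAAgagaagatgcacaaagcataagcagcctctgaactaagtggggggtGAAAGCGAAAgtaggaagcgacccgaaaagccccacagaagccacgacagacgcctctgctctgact
Psme2: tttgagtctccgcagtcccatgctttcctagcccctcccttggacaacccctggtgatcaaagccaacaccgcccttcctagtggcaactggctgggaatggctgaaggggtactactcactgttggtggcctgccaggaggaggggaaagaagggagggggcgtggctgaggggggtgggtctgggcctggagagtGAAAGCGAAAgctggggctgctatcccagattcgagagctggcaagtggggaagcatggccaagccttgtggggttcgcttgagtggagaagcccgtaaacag
Psmb10 holds GAAAGTGAAA and GAAAGCGAAA, and Psme2 holds GAAAGCGAAA. Searched on both strands, the element stood in 3 of the 5 promoters of Psmb8, Psmb9, Psmb10, Psme1 and Psme2, in 4 of 35 member promoters (Psma4, Psmb3, Psmd7 and Psmg4) and in 3.92% of all promoters of the table. None of those 4 members fell. Psmb9 and Psme1, which both fell, had no match in this window. The gamma-interferon activation site, TTCNNNGAA, stood in 3 of 35 member promoters (8.57%), in 1 of the 5 (Psmb8) and in 8.87% of all promoters.

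**Figure D4:**
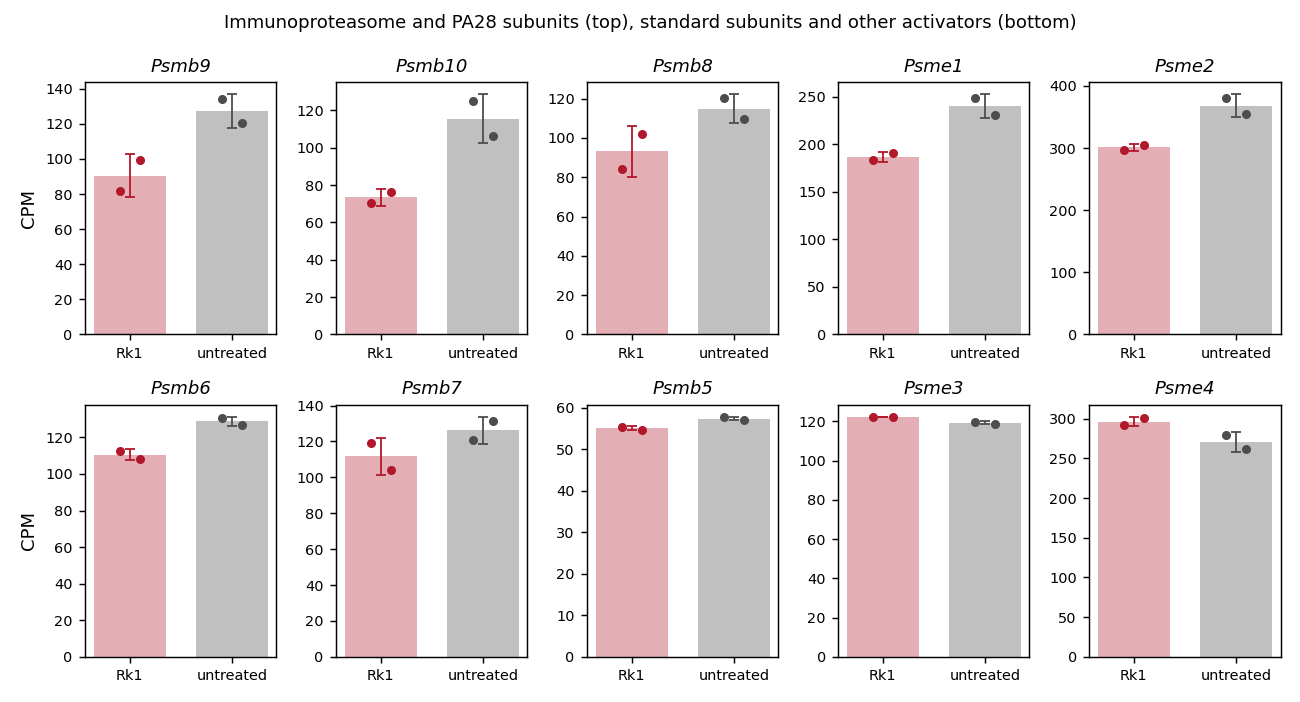
CPM (y axis, from 0) of the immunoproteasome subunits Psmb9, Psmb10 and Psmb8 and the PA28 genes Psme1 and Psme2 (top), and of the standard subunits Psmb6, Psmb7 and Psmb5 and the activators Psme3 and Psme4 (bottom), with Rk1 and untreated; bars are means, error bars SD and points the 2 libraries. The red points lie below the grey ones in every top panel, and relative to untreated the gap is widest for Psmb10 (73.4 and 115 CPM, means with Rk1 and untreated).

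Regulators and partners of the proteasome were taken from lists of other genes of the pathway. Of 9 genes of transcriptional control, 2 rose and 0 fell, where 11.5% of all tested genes rose and 10.5% fell, and so few genes allow no reading of the list as a whole. Nfe2l1, which encodes the factor NRF1 that raises proteasome genes when proteasome activity is short, had 465 and 511 CPM with Rk1, against 402 and 409 CPM untreated (0.27 ± 0.05, adjusted p = 0.011). Ngly1, the glycanase that activates NRF1, had 33.3 and 34.7 CPM with Rk1, against 28.0 and 29.6 CPM untreated (0.24 ± 0.06, adjusted p = 0.035). Ngly1 lost its call with DESeq2 and with any 1 library left out, with fold changes of 0.20 to 0.28 over the 12 alternatives. Ddi2, the protease that cleaves NRF1, was at 0.10 ± 0.06 and did not pass (adjusted p = 0.29), and Nfe2l2 was at -0.03 ± 0.10. Of 12 proteasome-bound deubiquitinases, ligases and shuttle factors, 1 rose, the ubiquitin ligase Ube3c (203 and 206 CPM with Rk1, against 181 and 184 CPM untreated; 0.16 ± 0.04, adjusted p = 0.029), and 0 fell. Ube3c likewise lost its call with DESeq2 and with any 1 library left out. Its fold change was 0.16 to 0.18 over the 12 alternatives. Among 8 tested genes of the segregase Vcp and its cofactors, 0 passed, with 1 at an unadjusted p under 0.05 and 0 called by DESeq2. Of 7 rows for ubiquitin genes and ubiquitin-activating enzymes, 2 carry the symbol Rps27a, so reads may be divided between near-identical copies. The Rps27a row with 206 and 241 CPM with Rk1, against 204 and 219 CPM untreated, did not pass (0.08 ± 0.08, adjusted p = 0.50). The other Rps27a row fell (-0.18 ± 0.05) and was the only row of the 7 to pass. That row lost its call without untreated replicate 2 and without Rk1 replicate 2, with fold changes of -0.22 to -0.15 over the 12 alternatives.

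How far the calls of the 6 depend on single libraries was examined by leaving out each in turn. Each such fit leaves a lone library in its group, and fewer genes were called over the whole table than with all libraries. Without untreated replicate 1 edgeR called 0 members, with 7 at an unadjusted p under 0.05, and without Rk1 replicate 2 it called Psmf1 alone. Without untreated replicate 2, Psmb2, Psmb6 and Psmf1 were called, and without Rk1 replicate 1, Psmb2, Psmb6, Psmb7, Psmc1 and Psmc5. DESeq2 called Psmb2, Psmb6, Psmc1 and Psmf1. No member was called higher under any of the 12 alternatives. Of the called genes outside the rule, Psmb9, Psmb10, Psme1, Psme2 and Nfe2l1 were called in each of the 12, and Ngly1 and Ube3c in 7 each and the called Rps27a row in 10. For Psmb9, Psmb10, Psme1, Psme2 and Nfe2l1 the highest adjusted p lay between 0.0070 and 0.044.

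**Figure D5:**
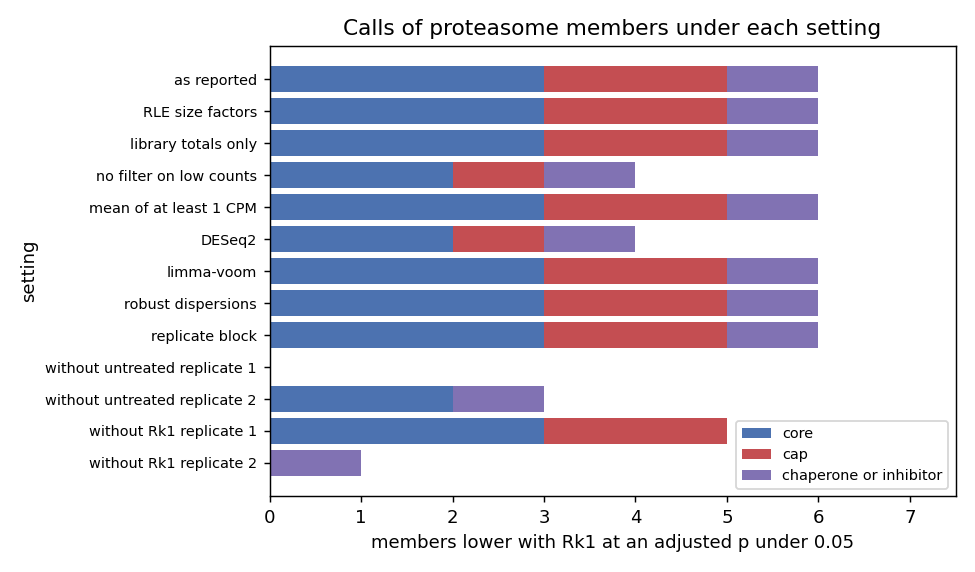
Number of members lower with Rk1 at an adjusted p under 0.05 (x axis, from 0) in the fit as reported and under 12 alternatives (y axis), with colours for core, cap, and chaperone or inhibitor. The bar is 6 long as reported, 4 with DESeq2 and absent without untreated replicate 1.

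In Rnor_6.0 coordinates, Psmb6 (ENSRNOG00000019551) lies on chromosome 10 at 57131386 to 57133637 and Psmb2 (ENSRNOG00000011463) on chromosome 5 at 144701949 to 144734257, both on the plus strand. Psma5 (ENSRNOG00000019868) lies on chromosome 2 at 211050360 to 211073714, plus strand. The ATPase genes Psmc1 (ENSRNOG00000003951) and Psmc5 (ENSRNOG00000010038) lie on chromosome 6 at 124123228 to 124135658 and chromosome 10 at 94445877 to 94451811, both on the plus strand. Psmf1 (ENSRNOG00000009640) lies on chromosome 3 at 147238114 to 147263275, minus strand. Another annotated gene overlaps 6 of the 40 members, and for 2 of these, Psma4 and Psmb7, the overlapping gene reached 1 CPM.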

How the data were processed

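Total RNA of 4 HSC-T6 libraries was used for cDNA libraries (VAHTS Universal V6 kit), per the labels' protocols. HISAT2 and HTSeq are named in the submitters' processing notes. Not given in the sources used here: versions, strand setting and the handling of reads with several matches. Raw counts per Ensembl gene were deposited by the authors, with exon lengths and Rnor_6.0 positions, per the file headers. A count of this kind can divide or drop reads between near-identical copies or overlapping genes.

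From these counts, genes were filtered with filterByExpr (minimum count 10, minimum total 15), scaled by TMM (factors 0.994 to 1.01) and tested with edgeR 4.0.16 (quasi-likelihood F-test, two-sided, group as the only term, 2 residual degrees of freedom), with Benjamini-Hochberg adjustment over 12316 genes at 0.05. The SE is the log2 fold change divided by the square root of F, and 95% intervals use the degrees of freedom of the fit. Scaled library totals give CPM and RPKM, and 3 counts correspond to 0.148 to 0.167 CPM, for counting error only. Replicates were not duplicates of one library (chi-square over degrees of freedom 4.49 with Rk1 and 4.39 untreated). Alternatives used DESeq2 1.42.0, limma 3.58.1, other scalings and filters, robust dispersions, a replicate block and each library left out. Members, gene lists and motifs were chosen with earlier results of these data known, so no set test was run. Every member is accounted for. Of the other lists, the called genes were named. Some uncalled genes were named too, and these were not always those with the smallest adjusted p. Psma3, Paaf1 and Ubxn7 matched no row by symbol, and Psma3l was matched by description after seeing the data. The steps were tested on simulated data, with changes larger than those of all members that passed. That test therefore does not cover changes as small as theirs. The result for 1 listed gene is not reported here.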

Additional observations from a re-analysis of the deposited data

How the results depend on the processing

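With DESeq2, 859 genes were higher and 853 lower. Cap genes that fell numbered 1 with DESeq2 and 1 with no filter on low counts, against 2 as reported. Leaving out 1 library at a time (the spread of a lone library is taken from the other group), between 824 and 1110 genes were higher and between 859 and 936 lower. Over the same 4 fits, 0 to 5 members fell, 0 to 3 core genes and 0 to 2 cap genes, with core medians of -0.105 to -0.0819 and cap medians of -0.0630 to -0.0251 (log2). The replicate numbers do not pair the libraries by any label, and deviations of same-numbered libraries correlated at 0.059. With the replicate block 6 members fell, the same genes as without it, and 1676 genes were higher and 1538 lower. RLE size factors, library totals, a mean of at least 1 CPM, limma-voom and robust dispersions also called those 6. No member or listed gene that was called changed direction in any of the 12 alternatives. Over these, 30 to 33 members had a fold change below 0, and member results kept their side of the threshold in 446 of 467 cases. Most of these cases were members not called as reported. In 20 cases a call of the 6 was lost, and in 1 case another member gained a call. With 2 libraries a group and an SE near 0.05 for most members, the smallest fall among the members that passed was 0.15 (log2), which is not a limit of detection.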
